A study of Mus musculus with 4 samples.

Results

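Adarb2-class interneurons are the name used here for 85 of 28672 kept barcodes in single-cell RNA libraries of the mouse rostral neocortex at embryonic day E15.5. They were classed as inhibitory neurons by their transcripts, and the identity of each cell was not established otherwise. A kept barcode had at least 1000 unique molecular identifiers (UMIs, each counting 1 captured transcript), at least 500 detected genes and at most 10% mitochondrial UMIs. A member had at least 1 UMI of at least 2 of the 4 GABAergic genes Gad1, Gad2, Dlx1 and Dlx6os1. It had no Lhx6 UMI and at least 1 UMI of Adarb2, Prox1 and Htr3a summed, so any of the 3 could admit it. It also had at most 1 UMI of Neurod6, an excitatory neuron gene, and at most 1 of Krt8, Cytl1 and Lbhd2 summed, genes that mark cells of the induced embryos. These measured values chose the cells, so the levels of those 12 genes are given as a description, without a test.

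Cortical GABAergic interneurons are born in the ganglionic eminences of the ventral forebrain and migrate tangentially into the cortex. Those of the caudal eminence express Adarb2, an RNA-binding protein of the adenosine deaminase family, and many express Prox1, a homeodomain transcription factor, and Htr3a, a subunit of the ionotropic serotonin receptor. The zinc finger factor Sp8 and the nuclear receptor Nr2f2 (COUP-TFII) are further markers of the caudal lineage. Interneurons of the medial eminence express Lhx6, a LIM homeodomain factor that acts downstream of Nkx2-1, and later become somatostatin or parvalbumin cells.

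The study had 2 i4F-Nes and 2 CTR libraries, CTR being littermates. Genotypes were Nestin-Cre;i4F;ROSA-STOP-rtTA for i4F-Nes and i4F;ROSA-STOP-rtTA for CTR, so both groups carried the inducible cassette of the Yamanaka factors (Pou5f1, Sox2, Klf4 and Myc) and the silent transactivator. Nestin-Cre was present in i4F-Nes only. It acts in progenitors throughout the developing nervous system, the ganglionic eminences included. In both groups the pregnant females received doxycycline in the drinking water (0.2 mg/ml) between E10.5 and E14.5, 4 days in all, and the tissue was taken at E15.5. The number of embryos per library is not given in the sources used here, and p-values therefore describe the spread among 4 libraries, which may be technical.

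The i4F-Nes libraries held 10 and 16 Adarb2-class interneurons and the CTR libraries 26 and 33. The 2 comparison classes were drawn by the same filters. Lhx6-positive interneurons, with at least 1 Lhx6 UMI in place of the Adarb2, Prox1 and Htr3a criterion, numbered 561. Excitatory cells, with at least 5 Neurod6 UMIs, numbered 18419 and served as a second comparison. Whether their UMIs of interneuron markers come from free RNA, doublets or the cells themselves was not tested. Kept libraries had medians of 11697 to 15629 UMIs per barcode, and pairs of libraries shared 11 to 21 barcode sequences. Xist was at 0 in the Adarb2-class interneurons of CTR replicate 1 and at 1601, 1454 and 2198 CPM (UMIs of the gene scaled to a common total per library and class) in the other libraries, while Ddx3y, a Y-linked gene, was found in CTR replicate 1 only (38.6 CPM). CTR replicate 1 thus differs from the other 3 in sex-linked transcripts. Such transcripts are therefore unevenly spread between the groups, and the part of sex in i4F-Nes against CTR was not tested.

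Adarb2-class interneurons were shallow. Their median depth was 6446 and 5017 UMIs in i4F-Nes and 5286 and 6112 in CTR, against 6747 to 7667 in Lhx6-positive interneurons and 13731 to 16218 in excitatory cells. Summed per library they gave 68088, 121739, 181393 and 189713 UMIs. A level of 14.7 CPM in i4F-Nes replicate 1 and of 5.27 CPM in CTR replicate 2 is therefore 1 UMI. Scrublet, a doublet caller, marked 5 of 10 and 3 of 16 members in i4F-Nes and 1 of 26 and 4 of 33 in CTR. Marked cells were kept, and results that change without them are named below.

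Adarb2 admitted most of the cells, which is why the class is named after it here: Prox1 was found in 5 of 10, 5 of 16, 7 of 26 and 17 of 33 members. Of the 85, 78 held Adarb2 UMIs, 35 of them without Prox1 or Htr3a, 14 with Htr3a, 10 with Prox1 and 19 with both. The other 7 comprised 4 cells with Prox1 alone, 2 with Htr3a alone and 1 with both. These 7 were 2 of 10 and 3 of 16 members in i4F-Nes and 1 of 26 and 1 of 33 in CTR. The 3 of i4F-Nes replicate 2 held 21585, 22166 and 13782 of the 121739 UMIs summed there. Levels given below for that library therefore rest in large part on these 3 cells. The median Adarb2 count was 36.5 and 26.5 UMIs per cell in i4F-Nes and 31.0 and 57.0 in CTR, with a highest value of 220. Only 4 cells stood just inside the rule with exactly 1 UMI of the 3 genes, and 77 had at least 5. All 4 GABAergic genes were detected in 46 cells.

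**Figure D1:**
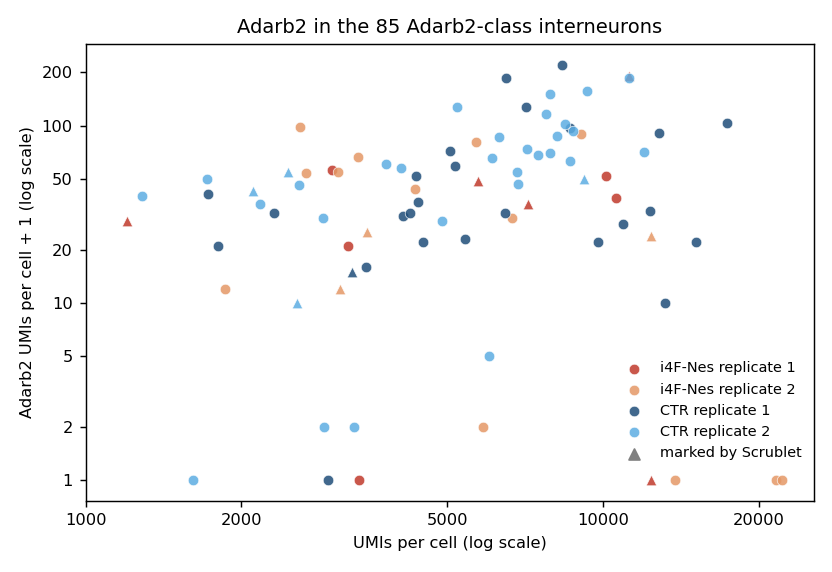
Adarb2 UMIs plus 1 (vertical, log scale) against all UMIs (horizontal, log scale) in each of the 85 Adarb2-class interneurons, coloured by library, with triangles for cells marked by Scrublet. In all, 72 of the 85 cells hold at least 10 Adarb2 UMIs, and 7 cells at the bottom hold none, among them the deepest of the class (22166 and 21585 UMIs), both of i4F-Nes replicate 2.

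Adarb2 (GRCm38 chromosome 13, 8202866 to 8768747) reached 6844 and 4781 CPM in the i4F-Nes members, and 7724 and 11101 CPM in those of CTR, against 1.12 to 11.5 CPM in Lhx6-positive interneurons and 9.79 to 17.6 CPM in excitatory cells. Prox1 (chromosome 1, 190118035 to 190170714) had 190.9 and 156 CPM (i4F-Nes) and 55.1 and 289.9 CPM (CTR). Of 561 Lhx6-positive interneurons 0 held a UMI of it, which allows a share of up to 0.535% of cells with a UMI and sets no limit on cells that express it. Htr3a (chromosome 9, 48899213 to 48911099) had 323 and 24.6 CPM (i4F-Nes) and 193 and 227 CPM (CTR). Its lowest library was i4F-Nes replicate 2, where 2 of 16 cells held it, against 14 of 26 and 15 of 33 in CTR. Among the 561 cells with Lhx6, 24 held a UMI of Adarb2, Prox1 or Htr3a, and 1 held at least 10 Adarb2 UMIs.

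Cells just inside and just outside the rule were counted. Among the members, 23 had exactly 2 of the 4 GABAergic genes and 11 had the 1 permitted Neurod6 UMI. Of the barcodes that failed a single criterion, 24 failed on Lhx6 (5 of them with 1 Lhx6 UMI), 19 on Neurod6 (4 with 2 UMIs), 5 on Krt8, Cytl1 and Lbhd2, and 459 on the GABAergic genes (26 with 1 of them). The 5 that failed on Krt8, Cytl1 and Lbhd2 were all from i4F-Nes, 4 in replicate 1 and 1 in replicate 2. Of 174 kept barcodes with at least 10 Adarb2 UMIs, 72 were members and 87 had fewer than 2 of the GABAergic genes, 31 and 42 of those in i4F-Nes and 7 and 7 in CTR. Another 167 GABAergic barcodes met every criterion but the Adarb2, Prox1 or Htr3a one. Their median depth of 3124 to 4598 UMIs per library lay below that of the members.

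The label of the class was checked against markers that the rule did not use. Sp8 (chromosome 12, 118846329 to 118852576) was found in 7 of 10, 5 of 16, 9 of 26 and 13 of 33 members, or 70.0%, 31.2%, 34.6% and 39.4%. Its share was 0% to 1.59% in Lhx6-positive interneurons and 1.26% to 3.75% in the deeper excitatory cells. After thinning every cell to 3800 UMIs, which left 6, 9, 20 and 22 members, Sp8 was found in 50%, 33.3%, 25.0% and 27.3% of them, against 0% to 1.01% of Lhx6-positive interneurons and 0.325% to 0.826% of excitatory cells. Without thinning, Nr2f2 was found in 60.0%, 37.5%, 76.9% and 60.6% of members, against 6.35% to 12% of Lhx6-positive interneurons. Sp8 and Nr2f2 were found together in 29 cells, Sp8 alone in 5, Nr2f2 alone in 23 and neither in 28. 

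Vip, a peptide of bipolar interneurons, had no UMI in any of the 85 members, which allows a share of up to 3.53% of cells with a UMI, and Calb2, the calcium-binding protein calretinin, was found in 1 cell of i4F-Nes replicate 2. Nkx2-1, the medial eminence factor, had no UMI. Sst reached 258 CPM in CTR replicate 2, all of it from 1 of 33 cells. In i4F-Nes it was found in 1 cell of replicate 1 (29.4 CPM over the library's members) and in 2 cells of replicate 2 (131 CPM), and those 2 held no Adarb2 UMI. Erbb4 was found in 77 of the 78 cells with an Adarb2 UMI and in 0 of the 7 without.

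Some members carried genes of other lineages. Meis2, a homeodomain factor of striatal and olfactory bulb lineages, was found in 26 members and Pax6, a factor of radial glia and olfactory bulb neurons, in 19. Both were found in 11 cells, 7 of which were among the 16 of i4F-Nes replicate 2. The same library held Ebf1, an early B-cell factor, at 1339 CPM from 2 cells, and Lgals7, a galectin, at 509 CPM, 95.2% of it from 1 cell. CTR replicate 1 held Neurog2, a proneural factor of cortical progenitors, at 584 CPM, 99.1% of it from 1 cell. Ebf1, Lgals7 and Neurog2 were singled out after their values were seen. Of the listed markers of other classes, the 3 preoptic genes Hmx3, Dbx1 and Hmx2 were at 0 in every library. Oligodendrocyte precursor genes were at 0 except in i4F-Nes replicate 2 (57.5 CPM, from 3 of 5 genes), and microglial genes were at 0 except in CTR replicate 2 (58.0 CPM, from 5 of 7 genes).

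The first comparison asked whether induction changed how many of these interneurons were recovered. Adarb2-class interneurons made up 0.123% (95% exact Clopper-Pearson interval 0.0590 to 0.226) and 0.231% (0.132 to 0.375) of the kept i4F-Nes barcodes. They made up 0.403% (0.263 to 0.590) and 0.461% (0.317 to 0.647) of the kept CTR barcodes. Both i4F-Nes shares lay below both CTR shares, with means of 0.177% ± 0.0762 and 0.432% ± 0.0411 (SD, n = 2 each), a ratio of 0.410. The exact two-sided permutation test over libraries gave p = 0.33, the smallest that 2 against 2 libraries allow, so the design could not place the difference beyond the spread. Intervals cover counting error only. The order held without Scrublet-marked cells, after thinning, and when barcodes with more than 1 UMI of Krt8, Cytl1 and Lbhd2 left the denominator (0.137% and 0.254% against 0.403% and 0.461%). That last change did not put back the 5 barcodes, all of i4F-Nes, that failed the rule on these genes only. With at least 5000 UMIs per barcode the difference was −0.163 percentage points, against −0.255 with all kept barcodes.

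Lhx6-positive interneurons had the same order. They made up 1.23% and 0.909% of kept i4F-Nes barcodes and 1.92% and 3.83% of CTR barcodes, with means of 1.07% ± 0.228 and 2.87% ± 1.35 (SD, n = 2 each), a ratio of 0.372 (exact two-sided permutation p = 0.33). Without CTR replicate 2 their difference was −0.851 points, against −1.80 with all libraries. As a share of both classes, Adarb2-class interneurons made up 9.09% (4.45 to 16.1) and 20.3% in i4F-Nes and 17.3% and 10.7% in CTR. These groups overlapped (difference 0.63 points, exact two-sided permutation p = 1.00), and the sign turned in several alternatives, to −4.95 points without i4F-Nes replicate 2 and −2.66 without CTR replicate 2.

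**Figure D2:**
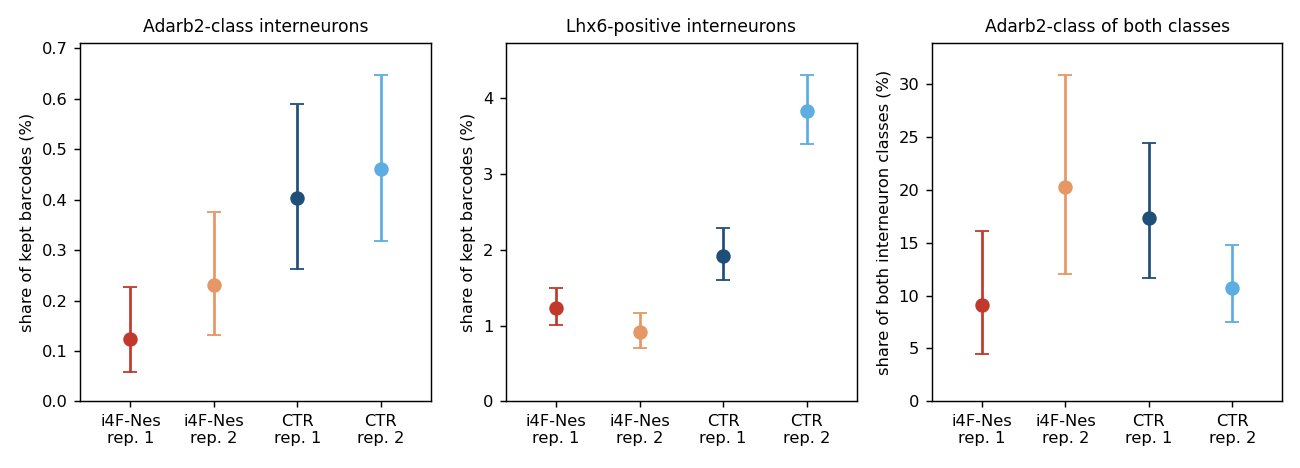
Share of kept barcodes that were Adarb2-class (left) or Lhx6-positive interneurons (middle), and Adarb2-class cells as a share of both classes (right), in percent, for each library. Points are libraries and bars are 95% exact binomial intervals. Both i4F-Nes points lie below both CTR points in the left and middle panels, and the groups overlap in the right panel.

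The next comparison set Adarb2-class against Lhx6-positive interneurons of the same libraries, to describe what the class carries beyond the genes that chose it. UMIs were summed per library and class and fitted with edgeR's quasi-likelihood F-test, each library serving as its own block. Of 6023 genes tested, 147 were higher in Adarb2-class interneurons (2.44%) and 219 lower (3.64%), 366 in all (6.08%), leaving out the genes of the rule. Other genes differ between interneuron lineages together with the rule's genes, so these counts describe the classes as drawn and give no independent support for them. Folds below are log2 values. The value after ± is an approximate standard error, the size of the fold divided by the square root of the F statistic over 4 libraries. Levels are CPM of the summed UMIs, in the order i4F-Nes 1, i4F-Nes 2, CTR 1 and CTR 2.

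Nr3c2, the mineralocorticoid receptor (ENSMUSG00000031618, GRCm38 chromosome 8, 76899442 to 77245012), had the largest fold. It had 323, 263, 342 and 606 CPM in Adarb2-class interneurons and 1.12, 0, 0 and 0.50 CPM in Lhx6-positive ones. That was 231 UMIs against 2, a ratio of 896 (95% counting interval 245 to 7443; edgeR adjusted p = 5.39e-15). Every library of one class lay above every library of the other, and 5, 6, 12 and 22 cells carried the UMIs. Cxcl14, a chemokine of caudal interneurons (chromosome 13, 56288643 to 56296551), had 132, 32.9, 71.7 and 47.4 CPM and no UMI in any Lhx6-positive sum, at least 90.5-fold higher against 3 counts over the class (adjusted p = 5.67e-07). It came from 2, 2, 3 and 5 cells. Sp8 had 190.9, 90.4, 88.2 and 121 CPM, set against 0, 1.98, 1.05 and 0.50 CPM (63 UMIs against 3, ratio 163, counting interval 53.3 to 811, adjusted p = 5.66e-10).

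Promoters of these 3 genes are shown because they led the genes that set the class apart. Sequences are the 250 bases before a RefSeq transcript start (GRCm38.p6), 5′ to 3′ on the gene's strand. Capitals mark the nuclear receptor half-site AGGTCA, which reads TGACCT on the other strand, or the homeodomain core TAATTA. Nr3c2 is chr8:76902080-76902329 on the plus strand, Cxcl14 is chr13:56296552-56296801 on the minus strand, and starts 2 and 3 of Sp8 are chr12:118846983-118847232 and chr12:118847309-118847558 on the plus strand.
Nr3c2: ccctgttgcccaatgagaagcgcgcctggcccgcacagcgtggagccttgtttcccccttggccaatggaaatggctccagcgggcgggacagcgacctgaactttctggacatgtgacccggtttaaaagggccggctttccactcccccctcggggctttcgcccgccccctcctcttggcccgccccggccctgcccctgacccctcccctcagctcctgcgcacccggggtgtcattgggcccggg
Cxcl14: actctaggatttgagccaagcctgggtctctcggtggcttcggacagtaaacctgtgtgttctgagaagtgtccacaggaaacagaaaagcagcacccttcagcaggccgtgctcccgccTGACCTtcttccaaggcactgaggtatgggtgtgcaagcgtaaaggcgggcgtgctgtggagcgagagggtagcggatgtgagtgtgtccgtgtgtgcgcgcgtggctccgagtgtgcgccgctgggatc
Sp8 start 2: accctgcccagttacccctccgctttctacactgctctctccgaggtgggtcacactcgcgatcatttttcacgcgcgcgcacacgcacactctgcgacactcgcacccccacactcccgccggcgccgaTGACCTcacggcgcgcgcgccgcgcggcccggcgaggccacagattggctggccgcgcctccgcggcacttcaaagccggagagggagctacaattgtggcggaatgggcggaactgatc
Sp8 start 3: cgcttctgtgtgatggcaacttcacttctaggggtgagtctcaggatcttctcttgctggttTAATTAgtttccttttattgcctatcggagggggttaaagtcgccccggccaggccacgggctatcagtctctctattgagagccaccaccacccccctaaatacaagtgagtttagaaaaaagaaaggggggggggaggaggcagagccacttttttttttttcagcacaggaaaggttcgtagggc
Nr3c2 and Sp8 start 1 (chr12:118846079-118846328, not printed) held neither motif, Cxcl14 and Sp8 start 2 held 1 half-site each, and Sp8 start 3 held 1 homeodomain core. Of the 12 genes with the largest folds upward, 8 were in the promoter table. In their first listed starts, on both strands, 0 held TAATTA and 1 held AGGTCA (12.5%), against 4.90% and 13.8% of 27025 genes. Of the 12 with the largest folds downward, 10 were in the table and held 1 and 0. The shares are descriptions of these letters in these windows.

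Several transcription factors were higher in Adarb2-class interneurons. Nr2f2 had 911, 214, 612 and 717 CPM versus 22.4, 9.89, 34.6 and 33.5 CPM (4.54 ± 0.253, adjusted p = 9.95e-13 in edgeR). Within i4F-Nes replicate 2, Nr2f2 was at 405 CPM in the members with an Adarb2 UMI and at 0 in the 3 without. Its paralog Nr2f1 was nearer in level, at 264, 197, 673 and 395 CPM versus 158, 168, 194 and 145 CPM (1.14 ± 0.243). Leaving out CTR replicate 1 (adjusted p = 0.125) or CTR replicate 2 (0.0596) ended the call of Nr2f1, with a range of 5.97e-06 to 0.125 over its alternatives. The nuclear factor I genes Nfib, Nfix and Nfia, which time neuronal differentiation, were higher: Nfib by 3.14 ± 0.249, Nfix by 2.44 ± 0.282 and Nfia by 2.10 ± 0.222. Nfib was even across libraries, at 1939, 2062, 2029 and 2346 CPM versus 194 to 283 CPM, and was found in 90.0%, 93.8%, 92.3% and 87.9% of members. Pbx3, a homeodomain partner of Hox and Meis proteins, was higher by 5.45 ± 0.431 (edgeR adjusted p = 3.98e-06), and missed the threshold among barcodes of at least 5000 UMIs (4.87, adjusted p = 0.0514; range over its alternatives 1.31e-66 to 0.0514). The antisense gene C79798 (5.13 ± 0.813) lies within Pbx3 (chromosome 2, 34171457 to 34373142), and reads of the pair cannot be told apart where strand was not used in counting. Among 13 tested genes of the list of other interneuron transcription factors, 4 were higher and 3 lower, with a median of 0.12. Meis2 was higher by 1.31 ± 0.271, and its call was lost in some alternatives. These were without CTR replicate 2 (edgeR adjusted p = 0.0794), with an Adarb2 UMI required (0.232) and without the library block (0.356). The range over its alternatives was 1.99e-07 to 0.356. At least 5 Meis2 UMIs were held by 12 members, 6 of them marked by Scrublet.

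Several secreted and surface proteins were higher as well. Wnt5a, a ligand of non-canonical Wnt signalling, had 132, 65.7, 182 and 200.3 CPM versus 0 to 3.003 CPM (6.22 ± 0.409). Slit1, a repulsive guidance ligand, had 162, 173, 143 and 237 CPM versus 2.50 to 11.2 CPM (5.18 ± 0.382), and the Slit receptor Robo1 was higher too (2.60 ± 0.222). Nrp2, a semaphorin co-receptor, was higher by 4.02 ± 0.400. Sorcs3, a sorting receptor, had 470, 501, 540 and 975 CPM versus 8.95 to 19.8 CPM (5.59 ± 0.310). Grm8, a presynaptic metabotropic glutamate receptor, was higher by 6.07 ± 0.563 from 2 or 3 cells per library. The remaining genes of the leading 12 were Egfem1 (6.60), Rwdd3 (5.76), an enhancer of sumoylation, and Pdzrn3 (5.10), a ubiquitin ligase. Egfem1 came from 1 cell in each of i4F-Nes replicate 2 and CTR replicate 1. Pdzrn3 missed the threshold among barcodes of at least 5000 UMIs (4.87, adjusted p = 0.0861; range over its alternatives 8.85e-66 to 0.0861). The other 10 of the 12 passed in every alternative that tested them.

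The caudal eminence list had 16 genes beside those of the rule, of which 10 were tested. 7 were higher, Cxcl14, Sp8, Nr2f2, Nr2f1, Npas1, Cnr1 and Synpr, and 1 was lower. The list's median log2 fold was 1.86, against 0.000418 over all genes tested. Cnr1, the cannabinoid receptor of later cholecystokinin cells, was higher by 2.58 ± 0.261 and Synpr, a synaptic vesicle protein, by 4.48 ± 0.360. Npas1, a basic helix-loop-helix factor of caudal interneurons, was higher by 0.87 ± 0.229 and lost its call when CTR replicate 1 (adjusted p = 0.178) or CTR replicate 2 (0.193) was left out, with a range of 6.59e-05 to 0.193 over its alternatives. Cck itself was lower, at 0, 0, 5.51 and 10.54 CPM versus 40.9 to 70.5 CPM (275 UMIs against 3, ratio of Lhx6-positive to Adarb2-class 11.8, counting interval 4.00 to 57.6). Reln, a secreted glycoprotein of both lineages, differed by −0.55 and did not pass.

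The medial eminence list had 18 genes, 11 of them tested, with 9 lower and 1 higher and a median log2 fold of −2.86. Sox6, a factor needed for the medial lineage, had 147, 501, 127 and 142 CPM versus 1249 to 1697 CPM (−2.86 ± 0.314). Satb1 (−1.75 ± 0.232), a chromatin organiser, and the leucine zipper factor Maf (−2.66 ± 0.270) were lower in all 4 libraries, as were Mef2c (−2.03 ± 0.244) and Elfn1 (−2.92 ± 0.536), a synaptic adhesion protein. St18, a zinc finger factor of that list, went the other way, at 235, 164, 99.2 and 163 CPM versus 3.36 to 9.89 CPM (5.05 ± 0.372). Sst differed by −2.31 and did not pass.

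**Figure D3:**
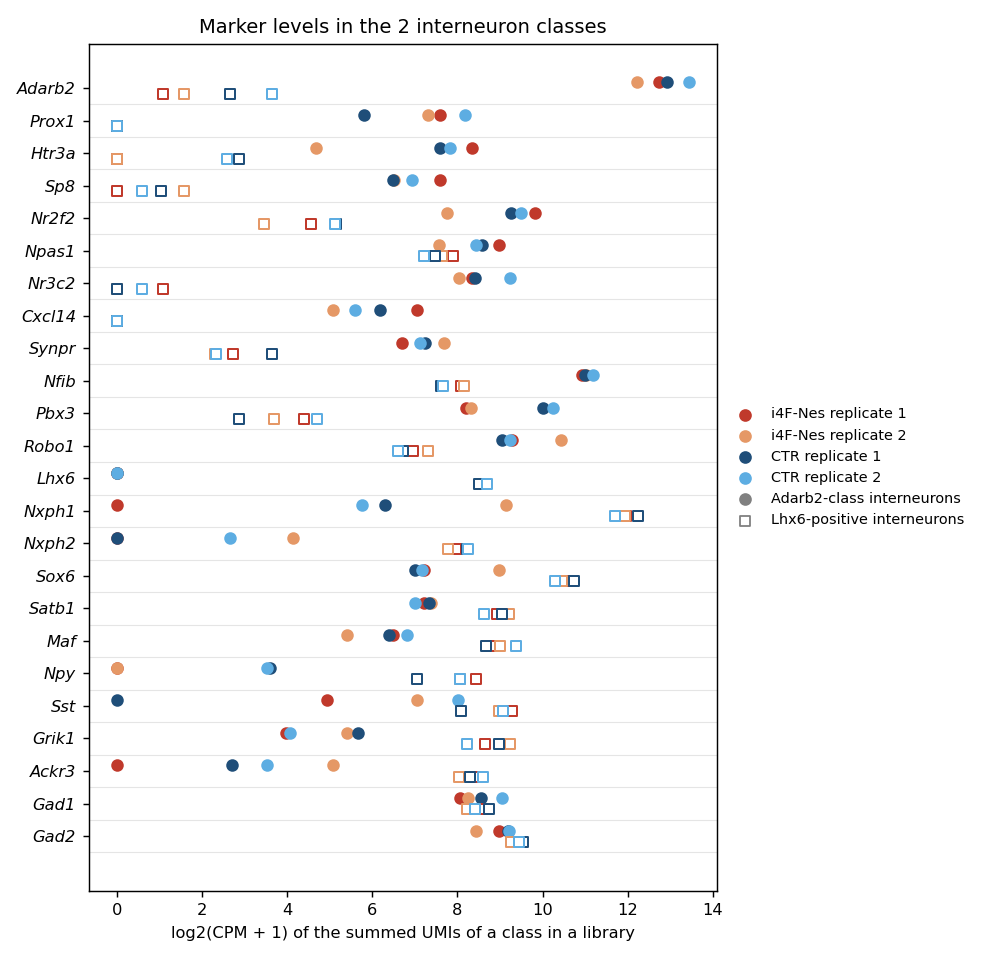
Levels of 24 genes as log2(CPM + 1) of summed UMIs, with filled circles for Adarb2-class and open squares for Lhx6-positive interneurons, coloured by library. The classes separate for Nr3c2, Cxcl14, Nr2f2 and Nfib in all 4 libraries, Sox6 is higher in i4F-Nes replicate 2 (501 CPM) than in the other 3 Adarb2-class sums, and the Gad1 points of the classes overlap.

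The neurexophilins Nxph2 and Nxph1, secreted glycoproteins, were among the 12 genes with the largest folds downward. Nxph2 had 0, 16.4, 0 and 5.27 CPM in Adarb2-class interneurons against 220 to 305 CPM, 1229 UMIs against 3 (ratio 52.8 in favour of Lhx6-positive cells, counting interval 18.0 to 256, edgeR adjusted p = 1.65e-09). Nxph1 had 0, 567, 77.2 and 52.7 CPM versus 3331 to 4860 CPM (−5.08 ± 0.868), with 75.4% of the 567 CPM from 1 cell. It missed the threshold in 6 of 12 alternatives, including those that left out CTR replicate 2 (adjusted p = 0.302) or i4F-Nes replicate 1 (0.108), with a range of 1.62e-17 to 0.302. The noncoding Gm13986 (274 UMIs) and Nox4 (183 UMIs), an NADPH oxidase, had no UMI in any Adarb2-class sum, at least 11.8-fold and 7.86-fold lower against 3 counts over the class. Npy, neuropeptide Y, had 0, 0, 11.03 and 10.54 CPM, set against 132 to 347 CPM (−5.01 ± 0.451). Of the remaining leading genes, Thbs1, a secreted thrombospondin, had 1 UMI against 317 (ratio 40.9 in favour of Lhx6-positive cells, counting interval 7.28 to 1619). Etl4 had 1 against 243 (31.3, 5.57 to 1242), and Ppp1r14c, an inhibitor of protein phosphatase 1, had 1 against 209 (26.9, 4.78 to 1069). Tshz3, a zinc finger factor, was lower by 4.38 ± 0.469 on the log2 scale. Of the 12 with the largest folds downward, 11 passed in every alternative that tested them, Nxph1 being the exception.

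Receptors of the chemokine Cxcl12, which steers migrating interneurons, were lower. Ackr3, the scavenging receptor, was lower by 4.71 ± 0.403 on the log2 scale (0, 32.9, 5.51 and 10.54 CPM versus 263 to 389 CPM). Cxcr4, the signalling receptor, was −1.56 ± 0.407 and missed the threshold in 5 of 11 alternatives, among them those without CTR replicate 1 (adjusted p = 0.0646), CTR replicate 2 (0.0575) or i4F-Nes replicate 2 (0.0629; range 0.00341 to 0.102). The migration list of 20 genes had 15 tested, with 3 higher (Robo1, Nrp2 and Pak3), 2 lower (Ackr3 and Cxcr4) and a median of 0.18. Erbb4, the neuregulin receptor of migrating interneurons, differed by −0.12 ± 0.250 and Dcx, a microtubule protein of migrating neurons, by −0.21 ± 0.225. Neither passed.

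Receptor genes differed in both directions. The list of glutamate, serotonin and acetylcholine receptors had 10 of 18 tested, with 5 lower, 1 higher and a median of −1.41. The AMPA receptor subunit Gria1 had 14.7, 320, 176 and 216 CPM versus 2050 to 3039 CPM (−3.72 ± 0.388), while Gria2 differed by 0.09 and did not pass. Kainate receptor subunits Grik1 (−3.84 ± 0.306) and Grik2 (−2.48 ± 0.274) and the kainate receptor partner Neto1 (−4.55 ± 0.358) were lower, as was the muscarinic receptor Chrm3 (−4.56 ± 0.398). Gria4 (−2.39 ± 0.380) was not called once CTR replicate 2 was left out (adjusted p = 0.0884; range over its alternatives 2.32e-19 to 0.0884). Chrna7, a nicotinic subunit, was higher (2.36 ± 0.349). Among 7 tested GABA receptor and chloride transporter genes, Gabra2 was higher (2.24 ± 0.279), and Gabrg3 (−1.97 ± 0.297) and Gabrb2 (−1.14) were lower. Gabrg3 missed the threshold when at least 2 UMIs of Adarb2, Prox1 and Htr3a were required (edgeR adjusted p = 0.0654). Gabrb2 missed the threshold in 6 of 12 alternatives, among them those without CTR replicate 1 (adjusted p = 0.215) and i4F-Nes replicate 2 (0.188; range 0.00430 to 0.215).

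Of 24 tested genes of neuronal differentiation and the synapse, 4 were lower, 0 higher at an adjusted p under 0.05, and the median was −0.05. Among them were Rbfox1, a splicing regulator (−2.97 ± 0.369), Syt1, the calcium sensor of vesicle release (−1.52 ± 0.236), and the calcium channel Cacna1a (−1.38 ± 0.290). Rbfox1 had 132, 1068, 198.5 and 232 CPM in Adarb2-class interneurons, highest in i4F-Nes replicate 2. It missed the threshold when an Adarb2 UMI was required (edgeR adjusted p = 0.0823). Of 5 tested cell cycle genes 4 were lower, with Ube2c (238 UMIs against 3, ratio 10.2 in favour of Lhx6-positive cells, counting interval 3.46 to 49.9) passing in each alternative that tested it. Hmgb2 was called in 4 of 12 alternatives and had the opposite sign after thinning (0.14 against −0.96).

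Other genes of GABAergic neurons were nearer in level. Of 7 tested beside those of the rule, 0 were higher and 3 lower, with a median of −0.12. Sp9, a zinc finger factor of interneurons, was lower by 1.05 ± 0.257 on the log2 scale. Its call was lost without CTR replicate 1 (edgeR adjusted p = 0.0612) or CTR replicate 2 (0.0558). Slc32a1, the vesicular GABA transporter, had 162, 107, 176 and 89.6 CPM versus 106, 95.0, 110 and 85.6 CPM and did not pass (0.37).

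**Figure D4:**
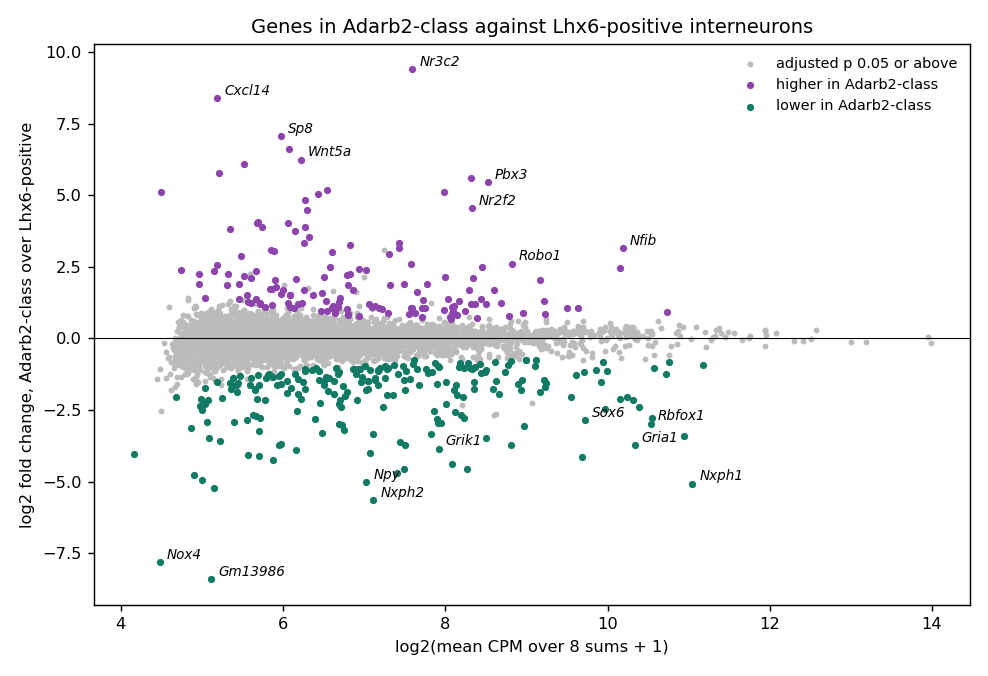
Log2 fold change of Adarb2-class over Lhx6-positive interneurons (vertical) against log2 of the mean CPM over the 8 sums plus 1 (horizontal) for the 6023 genes tested, with the 147 higher and 219 lower genes coloured and some of those described labelled. Nr3c2 and Cxcl14 lie at the top, and Gm13986 and Nox4 at the bottom.

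The last comparison asked how gene expression within Adarb2-class interneurons differed between i4F-Nes and CTR. Of 3398 genes tested with edgeR, 1 was higher (0.0294%) and 0 lower (0%), with 137 at an unadjusted p under 0.05. DESeq2 called 2. The count moved with single libraries, to 7 without CTR replicate 1, 6 without CTR replicate 2, 142 without i4F-Nes replicate 1 and 19 without i4F-Nes replicate 2. Nr2f1 differed by −1.23 ± 0.400 (adjusted p = 1.00). Sp8 differed by 0.34 ± 0.499, Nr2f2 by −0.30 ± 0.553 and Npas1 by −0.14 ± 0.435 (adjusted p = 1.00 each). Of the caudal list 9 genes were tested and of the medial list 7, and 0 passed in either direction. In simulated counts of this design 92.9% of changes of 3 on the log2 scale were recovered, and smaller changes were not simulated. Those counts were drawn with the same set spread for every gene, not the spread among these libraries. The 92.9% therefore does not say what share of such changes would be found in these sums.

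Zic1, a zinc finger factor of the dorsal and septal neural tube (ENSMUSG00000032368, GRCm38 chromosome 9, 91358058 to 91365810), was the gene that passed. It had 220.3 and 205 CPM in i4F-Nes and none in either CTR library, 40 UMIs against 0, at least 26.1-fold higher against 3 counts over the group (edgeR adjusted p = 0.00792). The UMIs came from 1 of 10 and 3 of 16 cells. Of those 4 cells, 3 held no Adarb2 UMI, 2 were marked by Scrublet, and all 4 held at least 10 UMIs of the netrin receptor Dcc. Zic1 missed the threshold among barcodes of at least 5000 UMIs (adjusted p = 0.0757, range over its alternatives 3.51e-12 to 0.0757). It was no longer among the genes tested without Scrublet-marked cells or when an Adarb2 UMI was required, a choice made after the data were seen, and 0 genes passed under each of these 3 settings. What these 4 cells are was not tested.

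The next 9 genes by unadjusted p did not pass in edgeR with all libraries, and the calls of 8 of them depended on the processing. Dcc passed in DESeq2 (adjusted p = 7.2e-06) and with each library left out in turn, and its adjusted p ranged from 1.02e-31 to 0.999 over its alternatives. That of Pbx3 ranged from 0.000101 to 0.999, and that of Tenm1 did not fall below 0.0962. Pbx3 had 294 and 320 CPM in i4F-Nes and 1036 and 1223 CPM in CTR (−1.87 ± 0.318, adjusted p = 0.124 in edgeR). Lrrc7, a postsynaptic scaffold protein, had 485 and 665 against 1367 and 1697 CPM (−1.39 ± 0.313, adjusted p = 0.469). Sox2ot, the long noncoding RNA whose locus holds Sox2, had 1660 and 1323 against 3594 and 3663 CPM (−1.29 ± 0.292, adjusted p = 0.469). These 3 came from most cells of each library, with at most 50% of a library's UMIs in 1 cell. Bmper, a regulator of bone morphogenetic proteins, was at −1.85 ± 0.407, Mob3b at −1.74 ± 0.426 and Tenm1, a teneurin adhesion molecule, at −1.97 ± 0.584. On the upward side Dcc had 881 and 3434 against 187 and 216 CPM (3.44 ± 0.637, adjusted p = 0.469), with 93.3% and 58.4% of the i4F-Nes UMIs in 1 cell each. Ccnd2, cyclin D2, had 132 and 304 CPM in i4F-Nes, 33.1 and 42.2 in CTR, and 1 cell held all its UMIs in each i4F-Nes library. Anp32e, a histone chaperone, was at 1.62 ± 0.432.

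**Figure D5:**
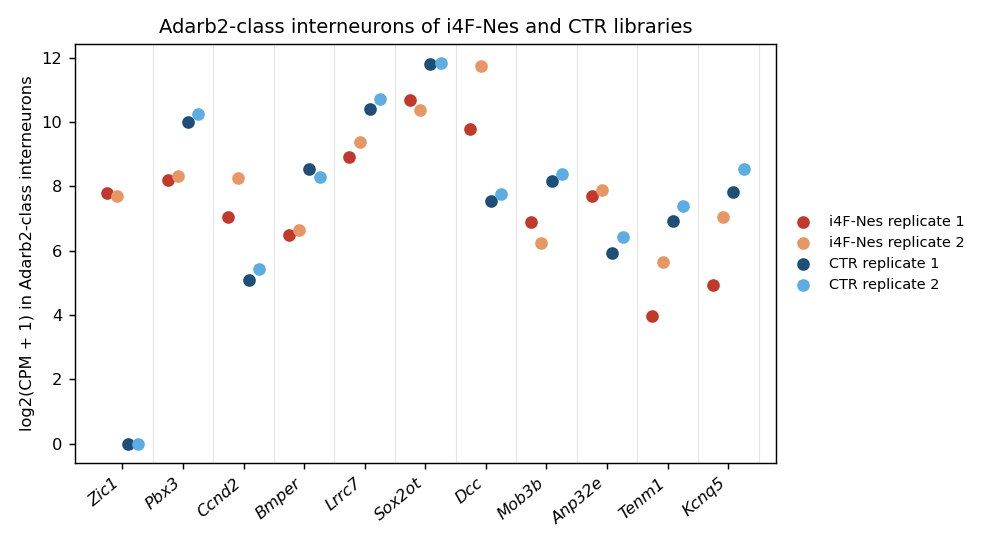
Levels as log2(CPM + 1) of the summed UMIs of Adarb2-class interneurons in each library, for the 10 genes with the smallest p in i4F-Nes against CTR and for Kcnq5. The 10 genes were picked by their p in this same comparison, and Kcnq5 by the test of a difference in response between the classes. That the groups do not overlap for any of the 11 therefore adds no support, and how many of all tested genes separate was not counted. Zic1, at 0 in both CTR libraries, is the gene that passed the test.

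In Lhx6-positive interneurons 0 of 9093 genes passed in i4F-Nes against CTR (0%; edgeR, 327 at an unadjusted p under 0.05), and DESeq2 called 2. Leaving out a library gave 31 (CTR replicate 1), 32 (CTR replicate 2), 79 (i4F-Nes replicate 1) and 3 (i4F-Nes replicate 2). Both comparisons come from the same 4 libraries. The difference of response between the classes was tested by an interaction term of group and class, fitted within libraries. Of 7158 genes 1 passed, smaller in Adarb2-class interneurons (0.014%), and 0 were larger (0%; DESeq2 called 1). Without CTR replicate 2 the count was 7, without i4F-Nes replicate 1 43 and without i4F-Nes replicate 2 7. The gene was Kcnq5, a voltage-gated potassium channel subunit (ENSMUSG00000028033, chromosome 1, 21398403 to 21961942). Its level in Adarb2-class interneurons was 29.4 and 131 CPM (i4F-Nes) against 226 and 369 CPM (CTR; −1.71 in that class, adjusted p = 1.00). In Lhx6-positive interneurons it was 54.8 and 168 CPM (i4F-Nes) against 4.19 and 32.5 CPM (CTR; 2.28, adjusted p = 1.00). The difference of the 2 responses was −4.58 ± 0.604 (edgeR adjusted p = 0.000173) and passed in all 10 alternatives, at −6.19 to −4.00 (adjusted p from 2.2e-11 to 0.00206). Pbx3 responded at −1.87 in Adarb2-class and −0.10 in Lhx6-positive interneurons, and Dcc at 3.44 and 0.30. Neither difference passed (adjusted p = 0.921 and 0.0917), nor did that of Zic1 (8.47 ± 3.36, adjusted p = 1.00).

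The reprogramming factors were examined as a check of the induction. Pou5f1 and Klf4 had no UMI in any Adarb2-class interneuron, and Myc had 1 UMI in each of i4F-Nes replicate 2 and CTR replicate 1. Sox2, which neural cells also express, had 294 and 230 CPM (i4F-Nes) and 419 and 300.5 CPM (CTR). Whether the counting captures the cassette is not stated in the labels, so these levels do not check the induction. Of the 11 genes listed for cells found mainly in i4F-Nes libraries, beside those of the rule, the summed level was 29.4 and 772 CPM in i4F-Nes and 11.03 and 5.27 CPM in CTR. The list was drawn up by an earlier look at these libraries. The 772 CPM in i4F-Nes replicate 2 included the Lgals7 UMIs of 1 cell.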

How the data were processed

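UMI counts per gene and barcode came from 4 deposited matrices, made by the authors with cellranger 7.0.1, per the file headers, on genome build mm10, per the submitters' processing notes. For introns, strand, doublets and free RNA, the settings were not given in the sources used here. The members, gene lists and tests were chosen with earlier results of these data known.

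Groups and replicate numbers came from the sample titles. Barcodes were classed by the stated rule, and counts were summed per library and class, 68088 to 189713 UMIs for Adarb2-class interneurons. Sums were tested in R 4.3.3 with edgeR 4.0.16 (TMM, filterByExpr, robust quasi-likelihood fit, Benjamini-Hochberg, threshold 0.05). DESeq2 1.42.0 was the other tool. Shares were compared with exact permutation tests. Intervals and floors (3 counts) cover counting error only. Scrublet in scanpy 1.11.5 marked the highest scores at 0.8% per 1000 barcodes.

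Named genes were the 12 per direction with the largest fold past the threshold at 20 CPM or more and 1 direction in all libraries, list members, and for i4F-Nes against CTR those past the threshold or the 10 of smallest p at 10 CPM or more. Coordinates are from GENCODE M21 (93 of 93 named genes matched by identifier), and promoters are from RefSeq. On simulated counts 92.9% of 198 genes (of 3479) changed by 3 on the log2 scale were recovered for i4F-Nes against CTR, and 99.5% of 190 (of 5827) for the class comparison. The simulated counts had the same set spread for every gene, which need not be that of the real sums. Some genes that counted in the lists are not reported here. Alternatives were Scrublet removal, higher minima, thinning to 3800 UMIs, no filter on low counts, left-out libraries and the replicate number as a block.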

Additional observations from a re-analysis of the deposited data

Results flagged for a closer look

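Kcnq5 was the result in which the response to induction differed between the classes, by a test of the difference itself. The response in Adarb2-class interneurons minus that in Lhx6-positive interneurons was −4.58 on the log2 scale. The 2 responses were −1.71 in Adarb2-class and 2.28 in Lhx6-positive interneurons, and neither passed by itself. In CTR, 3 Adarb2-class interneurons of each library held at least 5 Kcnq5 UMIs, and in the i4F-Nes libraries 0 did. A single cell held 29.3% and 40% of the Adarb2-class UMIs of Kcnq5 in the CTR libraries. The cells behind the Lhx6-positive response are not described here. The part of these few cells in the result was not tested.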

How the results depend on the processing

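Both interneuron shares kept their direction in every alternative run. The difference in Adarb2-class share was −0.309 to −0.201 points with 1 library left out, and that in Lhx6-positive share −2.76 to −0.851. Adarb2-class cells as a share of both classes had no stable sign: 0.63 points with all cells, −7.33 after thinning to 3800 UMIs, −2.04 without Scrublet-marked cells, −1.12 at 5000 UMIs or more, −1.36 with an Adarb2 UMI required (chosen after seeing the data), and −4.95 to 6.21 with 1 library left out. The cause was not tested.

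For i4F-Nes against CTR in Adarb2-class interneurons the count of genes was 1. It was 2 in DESeq2, 46 with no minimum on low counts, 0 without Scrublet-marked cells, 0 at 5000 UMIs or more and 0 with an Adarb2 UMI required. It was 6 to 142 with 1 library left out, where the lone library of a group is assumed to vary like the other group. In Lhx6-positive interneurons it was 0, against 2 in DESeq2, 30 without the filter and 3 to 79 with 1 library left out. For the difference of response it was 1, against 4 without the filter, 2 without Scrublet-marked cells, 2 with at least 2 UMIs of the admitting genes and 1 to 43 with 1 library left out. For Adarb2-class against Lhx6-positive interneurons it was 366, against 562 without the filter (343 of the 366 among them) and 285 to 408 with 1 library left out. Hmgb2 reversed after thinning, to 0.14. With the replicate number as a block the counts were 13 and 9 for i4F-Nes against CTR in Adarb2-class and Lhx6-positive interneurons, and 7 of the 9 named genes that did not pass (Pbx3, Dcc, Ccnd2, Sox2ot, Lrrc7, Bmper and Mob3b) passed. Same-numbered libraries deviated together with correlations of 0.132 and 0.236, but only 2 pairs exist and no label gives a pairing. Of 812 values of named genes between the classes, 729 kept their direction and call, 82 lost the call and 1 reversed.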
